A study of Homo sapiens with 6 samples.

Results

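Histone genes of the replication-dependent class and the linker histones were described in BE(2)-C, a human neuroblastoma cell line that carries MYCN amplification, after 24 h with BIX01294. Members were the genes whose symbol in the array annotation begins with H2AC, H2BC, H3C or H4C and a digit (or with the older prefix HIST), and the linker genes H1-1 to H1-6. Rows of the table with exactly 1 symbol were used, with the brightest row per gene, and this gave 57 members of 18404 genes: 6 of type H1, 14 of H2A, 17 of H2B, 8 of H3 and 12 of H4. All 57 have 1 row, so no choice between rows was made for them. A further 15 gene symbols of the same pattern appear solely in rows that carry several symbols and were not counted as members. The members include the pseudogene H2BC19P and the genes H1-6, H2AC1 and H2BC1, known from the testis.

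Each sample was total RNA hybridised to a single Affymetrix array that reads whole transcripts. The control group was 3 samples of BE(2)-C cells given 0.05% DMSO, the solvent, for 24 h, and the treated group was 3 samples of the same line given 5 µM BIX01294 for 24 h. Both groups come from 1 cell line grown in DMEM with dialyzed serum, and the labels record no DMSO content for the treated samples. BIX01294 is a small-molecule inhibitor of EHMT2 and EHMT1, enzymes that methylate a lysine in the tail of histone H3. The comparison asks which transcripts differ between treated and solvent control cells. The deposited values are on a log2 scale, array medians ran from 6.94 to 7.01, and each array correlated better with its own group (mean r 0.995 to 0.996) than with the other group (0.991 to 0.992). All 9 measured markers of adrenergic neuroblastoma cells lay above the upper quartile of all genes, as did 3 of 12 markers of mesenchymal or Schwann-like cells. Their mean levels per array were 11.12 to 11.13 (DMSO) and 11.08 to 11.14 (BIX01294) for the adrenergic list, and 7.48 to 7.58 and 7.51 to 7.53 for the mesenchymal list. Counts of marker genes past the test were 2 higher and 3 lower of 9, and 3 higher and 2 lower of 12. Of all genes, 12.9% were higher and 10.7% lower. Their part in the histone results was not tested.

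In the nucleosome, DNA is wrapped around a core of histones H2A, H2B, H3 and H4, and linker histone H1 binds where DNA enters and leaves. Most of this protein is made in S phase from clustered, intronless genes whose mRNAs end in a conserved stem-loop in place of a poly(A) tail. Transcription of these genes depends on NPAT, a substrate of cyclin E and CDK2, and the stem-loop is bound by SLBP, which takes part in processing, translation and decay of the message. In proliferating tumour cells these transcripts are abundant and tied to DNA synthesis. The priming used for labelling is not given in the sources used here, and a method that relied on poly(A) tails would see these messages poorly.

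Histone transcripts were lower in BIX01294, by modest amounts. Of the 57 members, 26 fell, 0 rose and 31 did not pass the test (limma, adjusted p under 0.05 over all genes). The background for a fall was 10.7% of all genes, and for a rise it was 12.9%. The median log2 change of the members, BIX01294 minus DMSO, was -0.23, beside -0.01 for all genes. At an unadjusted p under 0.05, 34 members were lower and 1 was higher, where 16.2% and 18.7% of all genes were. The 3 BIX01294 arrays lay below all 3 DMSO arrays in 34 members, against a background of 18.7% of all genes, and above them in 1 member, against 21.4%. Folds among the 26 genes that fell ran from 1.16 to 1.80. The sign of the change was negative in 51 of the 57, whether or not the member passed. Leaving out DMSO replicate 2 reduced the falls to 14, and leaving out BIX01294 replicate 3 to 13, with a median of -0.19 either way. Falls over all genes were then 1384 and 1319, against 1970 with all arrays. With trend and robust variance estimation, 33 members were lower and 2 were higher, namely H2AC21 and H4C13. That estimation gave 2333 falls and 2991 rises over all genes, against 1970 and 2379.

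**Figure D1:**
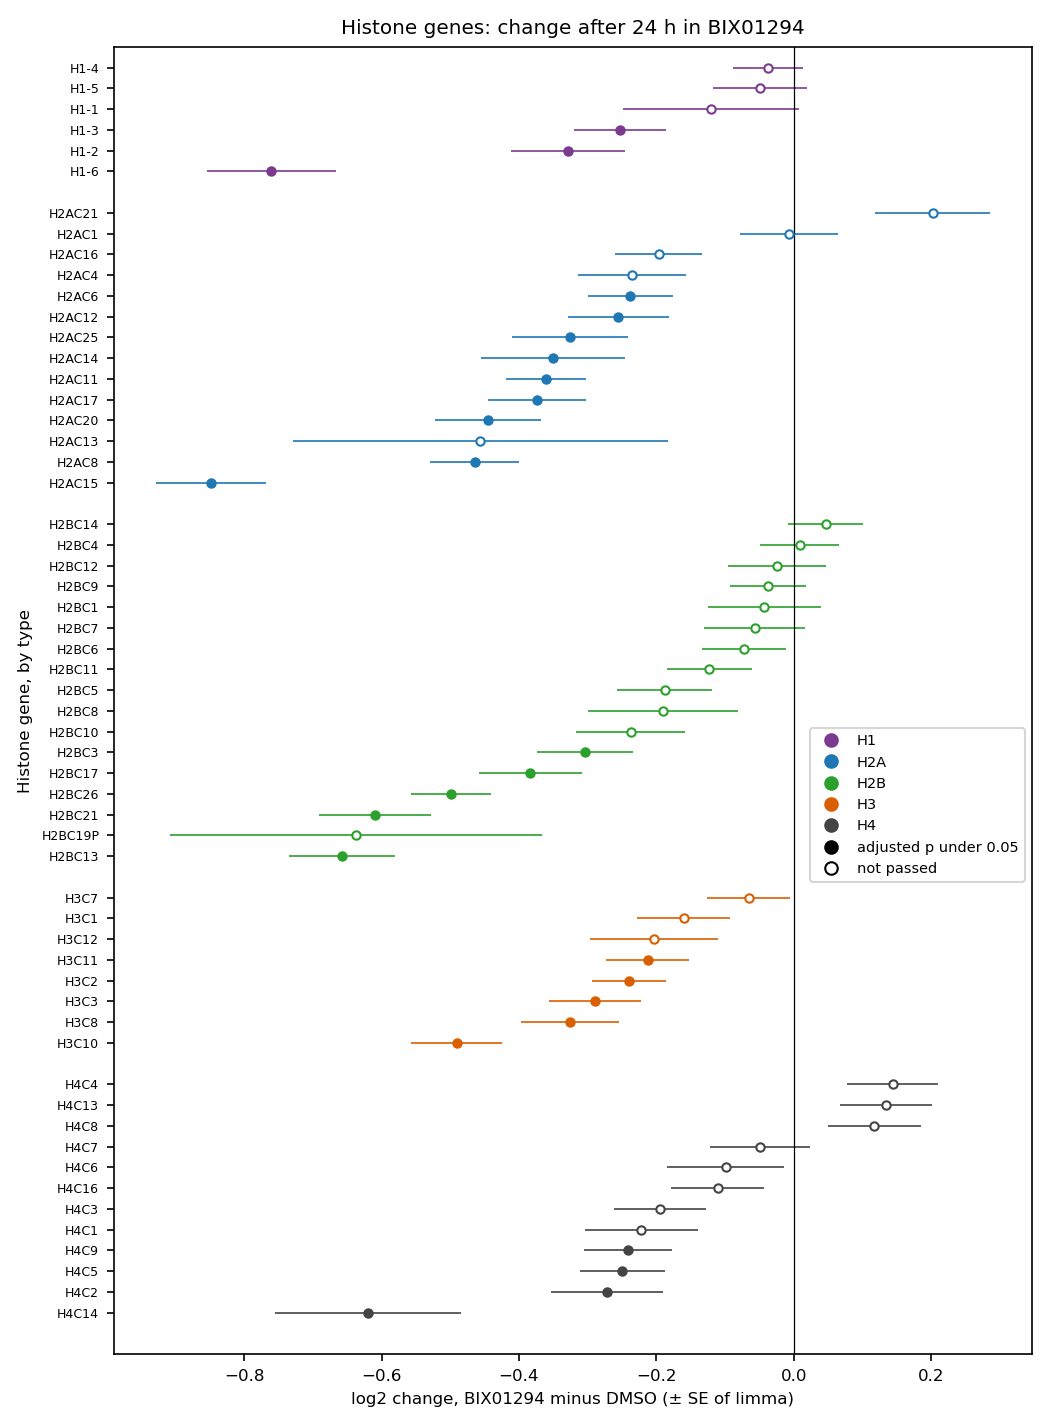
Log2 change of each of the 57 histone genes (x axis, BIX01294 minus DMSO, with the standard error from limma), grouped by histone type (colour) and ordered within it; filled points passed an adjusted p of 0.05. All 26 filled points lie left of 0, and 6 open points lie right of it.

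All 3 treated arrays were lower in median. Set against each gene's DMSO mean, the median over the 57 members was -0.17 in BIX01294 replicate 1, -0.20 in replicate 2 and -0.31 in replicate 3. The DMSO arrays gave -0.01, 0.05 and -0.04 for the same genes. Over all genes the same medians were -0.03, 0.03 and -0.01 in the BIX01294 arrays. DMSO replicate 2 was the control array with the highest histone median, and BIX01294 replicate 3 the treated array with the lowest.

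**Figure D2:**
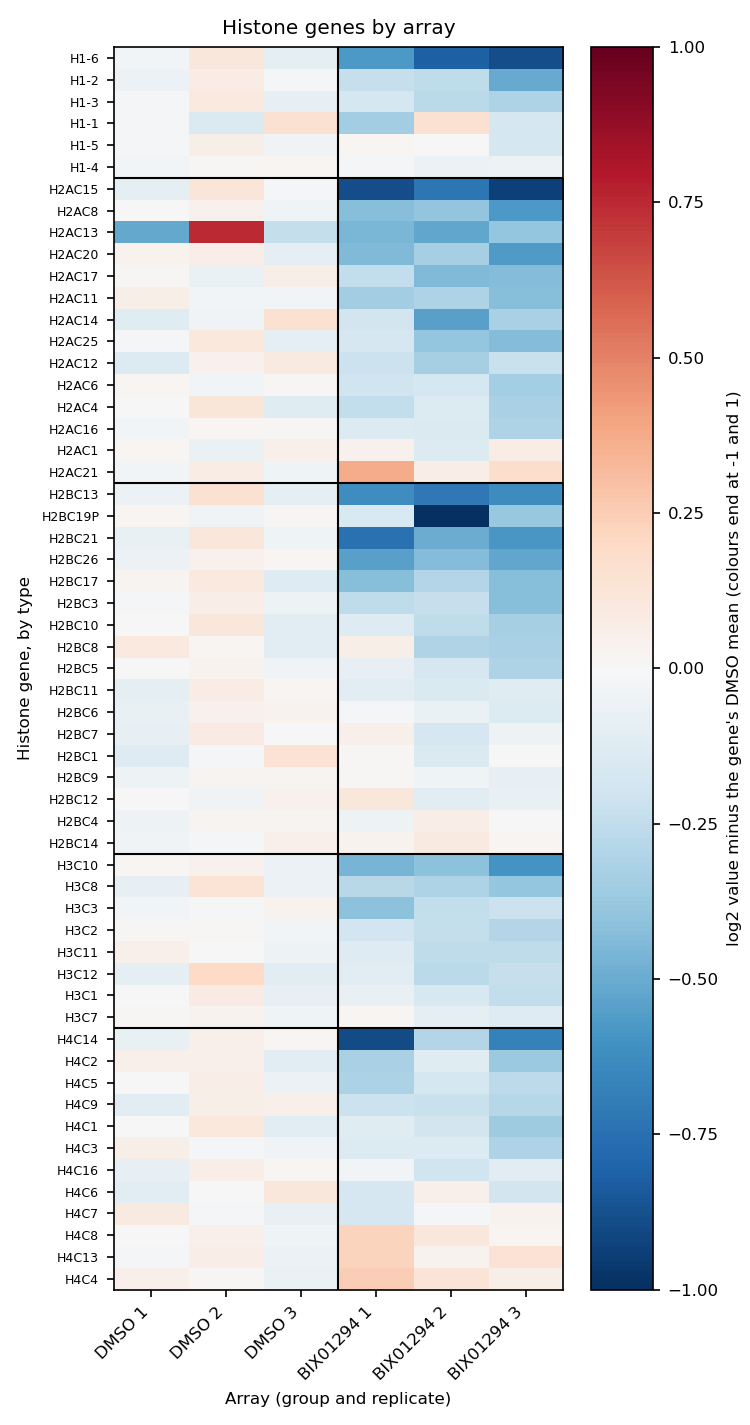
Each row is a histone gene and each column an array; colour is the log2 value minus that gene's DMSO mean, from blue (lower) to red (higher). The 3 BIX01294 columns are blue for most genes of every type, palest in H1-4, H2BC14 and other genes near 0, and red for H2AC21, H4C4, H4C8 and H4C13; H2AC13 has a single red cell, in DMSO replicate 2.

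Of the 6 linker histone genes, 3 fell and 3 did not pass, beside 26 and 31 of all 57 members. Their median log2 change was -0.19. H1-2, one of the main somatic linker histones, measured 11.02, 11.15 and 11.06 in DMSO and 10.84, 10.82 and 10.57 in BIX01294. The groups did not overlap, and replicate 3 was the lowest of the treated arrays. H1-2 changed by -0.33 ± 0.083 (SE; adjusted p 0.0231 in limma), a 1.26-fold fall. Its adjusted p rose above 0.05 when DMSO replicate 2, DMSO replicate 3 or BIX01294 replicate 3 was left out (highest adjusted p 0.0763 in limma). H1-3, another somatic linker histone, measured 9.61, 9.71 and 9.54 in DMSO and 9.44, 9.35 and 9.31 in BIX01294. Every treated array lay below the controls here too. The change in H1-3 was -0.25 ± 0.066 (SE; adjusted p 0.0268 in limma), and the call was lost when DMSO replicate 1 or 2, or BIX01294 replicate 2 or 3, was left out (highest adjusted p 0.0960 in limma). H1-3 also lost it with centring (limma adjusted p 0.0588), and H1-2 and H1-3 both did with all rows of the table fitted (0.0593 and 0.0622).

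The largest change among linker genes was that of H1-6, the testis linker histone. It measured 6.06, 6.20 and 5.996 in DMSO and 5.52, 5.27 and 5.20 in BIX01294. The groups were well apart, but the mean of this gene lay under the lower quartile of all genes (5.99). H1-6 changed by -0.76 ± 0.094 in log2 (SE; limma adjusted p 0.00101) and kept its call in every alternative that tested it. No fold is given for H1-6, since the table has no detection call and its lower level was not shown to be above background.

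H1-4, a somatic linker histone, measured 14.01, 14.05 and 14.07 in DMSO and 14.04, 13.99 and 13.9965 in BIX01294. Its groups overlapped, and the difference was -0.04 ± 0.051 (SE; adjusted p 0.668 in limma). H1-5, also somatic, measured 11.72, 11.80 and 11.71 in DMSO and 11.77, 11.75 and 11.57 in BIX01294, a difference of -0.05 ± 0.069 (SE). The single low array for H1-5 was BIX01294 replicate 3, and without it the difference was 0.01. H1-1 measured 5.44, 5.31 and 5.61 in DMSO and 5.11, 5.61 and 5.29 in BIX01294. BIX01294 replicates 1 and 3 lay below the controls and replicate 2 within their range, and all 6 arrays lay under the lower quartile of all genes. The adjusted p-values in limma were 0.674 for H1-5 and 0.569 for H1-1.

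**Figure D3:**
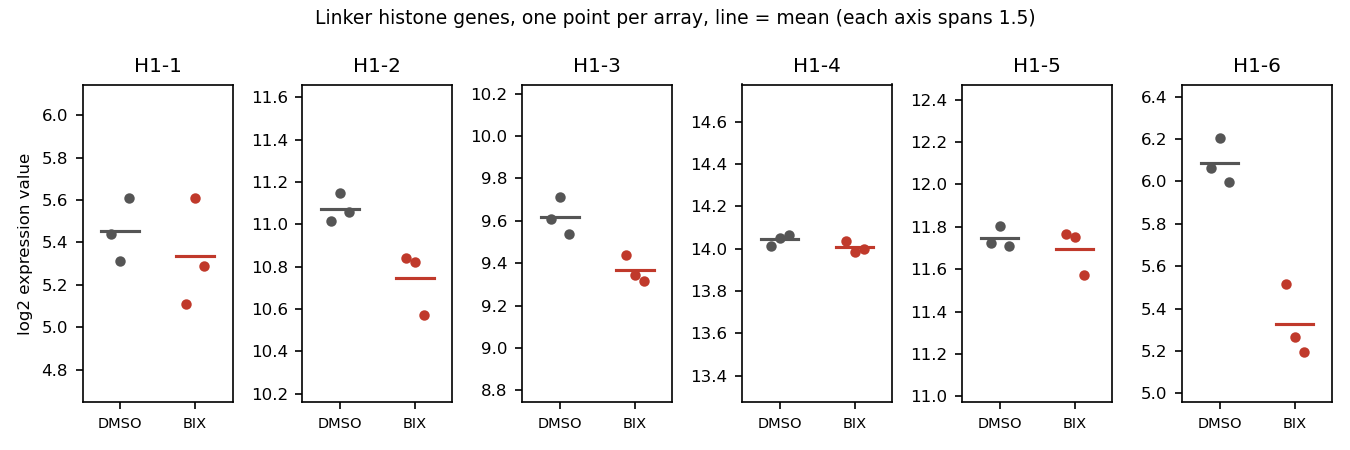
Log2 expression values of the 6 linker histone genes, 1 point per array (grey, DMSO; red, BIX01294) with the mean of each group as a line; each panel spans the same 1.5 log2 units around its own gene. The groups separate for H1-2, H1-3 and H1-6 and overlap for H1-1, H1-4 and H1-5.

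The start regions of these linker genes share a short element whichever way the gene went. The AC box of H1 promoters, searched as AAACACA on both strands in the RefSeq windows of 300 bases (250 before to 50 after the start, GRCh38.p14), was present in all 6 linker genes and in 5.64% of all 35116 windows. Below are the 250 bases before the start of H1-2 (chr6:26056471-26056720, minus strand) and H1-6 (chr6:26108136-26108385, minus strand), which fell, and of H1-4 (chr6:26156079-26156328, plus strand), which did not pass. They are shown because the same element stands before genes with different outcomes, a choice made with their values known; capitals mark each match.
H1-2: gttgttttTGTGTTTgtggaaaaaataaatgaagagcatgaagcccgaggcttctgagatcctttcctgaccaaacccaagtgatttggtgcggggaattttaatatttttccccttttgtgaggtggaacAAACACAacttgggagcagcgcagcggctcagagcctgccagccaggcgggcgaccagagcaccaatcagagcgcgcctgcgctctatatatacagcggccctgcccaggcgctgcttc
H1-6: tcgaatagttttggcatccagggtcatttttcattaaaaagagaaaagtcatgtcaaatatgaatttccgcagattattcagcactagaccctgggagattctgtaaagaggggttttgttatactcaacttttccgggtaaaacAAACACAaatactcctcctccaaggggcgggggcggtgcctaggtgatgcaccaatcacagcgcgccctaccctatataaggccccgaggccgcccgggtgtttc
H1-4: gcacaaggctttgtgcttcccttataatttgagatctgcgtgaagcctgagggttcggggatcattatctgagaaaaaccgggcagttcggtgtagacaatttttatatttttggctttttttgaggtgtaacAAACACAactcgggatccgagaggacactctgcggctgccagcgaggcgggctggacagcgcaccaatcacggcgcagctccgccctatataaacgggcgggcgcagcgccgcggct
The match nearest the start begins 119 bases before it in H1-2, 105 in H1-6 and 117 in H1-4. H1-2 has another match, on the opposite strand, that begins 242 bases before the start. A match is a description of letters, and no binding was measured here.

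Of the 14 H2A genes, 9 fell, 0 rose and 5 did not pass, with a median log2 change of -0.34. No difference between histone types was tested. The largest change of all members was in H2AC15, which encodes an H2A core histone and measured 10.84, 11.06 and 10.92 in DMSO against 10.06, 10.22 and 10.00 in BIX01294. All treated arrays lay far below the controls. H2AC15 fell 1.80-fold (log2 change -0.85 ± 0.080 SE, adjusted p 0.000308 in limma). H2AC8 measured 8.52, 8.56 and 8.48 in DMSO and 8.10, 8.13 and 7.95 in BIX01294, with no overlap and a 1.38-fold fall (adjusted p 0.00175 in limma).

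H2AC20, a gene of the chromosome 1 group, measured 11.65, 11.68 and 11.51 in DMSO and 11.18, 11.28 and 11.05 in BIX01294. It fell 1.36-fold with separate groups (log2 change -0.45 ± 0.077 SE). H2AC17 fell 1.30-fold and H2AC11 1.28-fold, with treated arrays of 7.50, 7.30 and 7.31 below controls of 7.76, 7.67 and 7.80 for H2AC17. These 5 genes kept their call in every alternative. H2AC25 (-0.33 ± 0.085 SE), H2AC12 (-0.26 ± 0.073 SE) and H2AC6 (-0.24 ± 0.062 SE) also fell. The call of H2AC25 was lost on leaving out DMSO replicate 1 or 2, or BIX01294 replicate 2 or 3, that of H2AC6 on leaving out any DMSO array or BIX01294 replicate 3, and that of H2AC12 on leaving out any array but DMSO replicate 1. The highest adjusted p-values in limma without 1 array were 0.0943 for H2AC25, 0.0818 for H2AC6 and 0.112 for H2AC12. H2AC12 also lost its call with quantile normalization (0.0504), centring (0.0608) and the replicate block (0.0614), H2AC6 with the block (0.0513), and all 3 genes with all rows of the table fitted. Leaving out DMSO replicate 2 left 5 H2A genes that fell, as did leaving out BIX01294 replicate 3.

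The H2A genes that did not pass ran from -0.46 to 0.20. H2AC13 was the most negative of these and is dim, at 3.13, 4.39 and 3.41 in DMSO and 3.18, 3.12 and 3.26 in BIX01294. A single array, DMSO replicate 2, stood above the other five, and the groups overlapped. H2AC21 was the most positive, at 12.20, 12.30 and 12.18 in DMSO and 12.60, 12.29 and 12.40 in BIX01294. BIX01294 replicate 2 lay within the range of the controls, and the difference of 0.20 ± 0.084 (SE) had an adjusted p of 0.125 in limma. H2AC13 and H2AC21 are named here for their values, outside the naming rule.

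Among H2B genes, 5 of 17 fell, 0 rose and 12 did not pass, and the median log2 change was -0.19. H2BC13 measured 8.30, 8.51 and 8.25 in DMSO and 7.73, 7.64 and 7.72 in BIX01294. The treated arrays were tightly grouped below all controls, and H2BC13 fell 1.58-fold (adjusted p 0.000786 in limma). H2BC21 measured 9.65, 9.83 and 9.68 in DMSO and 8.97, 9.22 and 9.13 in BIX01294. Its groups were separate, with a 1.53-fold fall (log2 change -0.61 ± 0.081 SE). H2BC26, on chromosome 1, measured 8.12, 8.22 and 8.19 in DMSO and 7.63, 7.74 and 7.66 in BIX01294, a 1.41-fold fall with no overlap. H2BC17 fell 1.30-fold and H2BC3 1.23-fold. H2BC3 lost its call without DMSO replicate 2 (adjusted p 0.0554 in limma), and the other 4 of these H2B genes kept theirs in every alternative. Without BIX01294 replicate 1, 8 H2B genes fell.

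The H2B genes that did not pass ran from -0.64 to 0.05. The value of -0.64 is that of the pseudogene H2BC19P, where BIX01294 replicate 2 stood far below the other arrays at 5.74, against 6.97 and 6.75 in the other treated arrays and 7.09 to 7.14 in DMSO. Its adjusted p was 0.135 in limma. H2BC14, a protein-coding member, measured 13.52, 13.54 and 13.61 in DMSO and 13.59, 13.64 and 13.57 in BIX01294, and its groups overlapped. H2BC19P and H2BC14 are likewise named outside the rule.

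Many H2A and H2B genes lie head to head and share the DNA between their starts. Of 10 pairs of members with starts under 1000 bases apart on opposite strands in the RefSeq windows, both members fell in 3, 1 member fell in 5 and neither did in 2. Among these last 2 is a pair of an H3 and an H2B gene, H3C7 with H2BC9, with starts 979 bases apart. All other pairs are of H2A with H2B, with starts 215 to 248 bases apart. The pairs in which both fell were H2BC21 with H2AC20 (-0.61 and -0.45), H2AC25 with H2BC26 (-0.33 and -0.50) and H2AC17 with H2BC17 (-0.37 and -0.38). In H2BC13 with H2AC13 and in 4 other pairs 1 gene passed. The widest split was H2AC14 at -0.35 (adjusted p 0.0435 in limma) beside H2BC14 at 0.05 (adjusted p 0.606 in limma), whose starts are 245 bases apart. H2AC14 kept its call in 5 of 13 alternatives. The testis pair H2AC1 and H2BC1 differed by -0.01 and -0.04 and did not pass. Genes in the pairs were listed by position, not by the naming rule. Of all 57 members 26 fell, and agreement within pairs was not tested against that share.

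The octamer ATTTGCAT, the element through which H2B promoters are read by OCT-family factors, was searched on both strands of the same windows. It was present in 10 of 13 H2A and 13 of 16 H2B members with a window, in none of the H1, H3 and H4 members with one, and in 1.77% of all windows. Falls were counted in 9 of the 23 genes with the octamer and in 4 of the 6 H2A and H2B genes without it, with medians of -0.20 and -0.48. By type these were 6 of 10 and 2 of 3 in H2A, and 3 of 13 and 2 of 3 in H2B. The genes without it include the pairs H2BC13 with H2AC13 and H2AC25 with H2BC26, so they are not 6 separate regions. Their median rests in part on the dim gene H2AC13. No difference between genes with and without the octamer was tested. Shown here are the 250 bases before the start of H2AC20 (chr1:149886668-149886917, plus strand), which reach its partner H2BC21, of H2BC14 (chr6:27814772-27815021, plus strand), which reach its partner H2AC14, and of H2AC15 (chr6:27838376-27838625, minus strand). They set a pair in which both genes fell beside a pair that split and beside the member with the largest fall. Capitals mark the octamer or its reverse complement.
H2AC20: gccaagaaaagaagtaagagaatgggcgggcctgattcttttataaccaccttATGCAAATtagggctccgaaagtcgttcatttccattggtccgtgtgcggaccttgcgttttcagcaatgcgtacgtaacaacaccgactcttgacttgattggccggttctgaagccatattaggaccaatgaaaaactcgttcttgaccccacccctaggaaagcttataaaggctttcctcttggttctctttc
H2BC14: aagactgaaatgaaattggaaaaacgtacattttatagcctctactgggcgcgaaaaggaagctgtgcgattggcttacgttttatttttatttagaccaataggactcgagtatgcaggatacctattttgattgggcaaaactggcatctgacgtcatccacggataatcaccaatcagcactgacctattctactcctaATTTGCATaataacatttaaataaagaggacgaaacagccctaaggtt
H2AC15: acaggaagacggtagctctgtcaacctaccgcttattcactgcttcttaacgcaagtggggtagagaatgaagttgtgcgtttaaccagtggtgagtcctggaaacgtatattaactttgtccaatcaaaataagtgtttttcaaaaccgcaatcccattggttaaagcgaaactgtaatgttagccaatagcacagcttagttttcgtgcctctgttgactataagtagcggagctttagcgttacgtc
The octamer begins 197 bases before the start of H2AC20 and 48 bases before that of H2BC14, and these letters are not in the H2AC15 window. CCAAT was found on either strand in 44 of the 51 members with a window (34.6% of all windows) and TATAAA in 34 (11.5% of all windows). The windows of H2AC12, H2BC19P, H3C11, H3C12, H4C1 and H4C3 were not used here.

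H3 genes fell in 5 of 8 cases and rose in 0, with 3 not passing and a median log2 change of -0.23. H3C10, which encodes the canonical histone H3, measured 8.99, 9.01 and 8.91 in DMSO and 8.51, 8.56 and 8.38 in BIX01294. The groups were far apart, with a 1.41-fold fall (log2 change -0.49 ± 0.066 SE, adjusted p 0.00146 in limma). H3C3 measured 7.91, 7.93 and 7.97 in DMSO and 7.52, 7.69 and 7.72 in BIX01294, with no overlap and a 1.22-fold fall. H3C10 and H3C3 kept their call in every alternative. H3C8 (1.25-fold), H3C2 (1.18-fold) and H3C11 (1.16-fold) also fell. H3C8 no longer passed on leaving out BIX01294 replicate 3, H3C2 on leaving out DMSO replicate 1, DMSO replicate 2 or BIX01294 replicate 3, and H3C11 on leaving out either of those DMSO arrays or BIX01294 replicate 2 or 3. Their highest adjusted p-values in limma without 1 array were 0.0550, 0.0566 and 0.120. H3C11 also lost its call with centring (0.0942), the replicate block (0.0502) and all rows of the table fitted (0.0740). The other H3 genes ran from -0.20 to -0.07. The count of falling H3 genes was 3 without DMSO replicate 1 or 2 and 2 without BIX01294 replicate 3.

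Of the 12 H4 genes, 4 fell, 0 rose and 8 did not pass, with a median log2 change of -0.15. H4C14, on chromosome 1, measured 12.37, 12.49 and 12.46 in DMSO and 11.55, 12.15 and 11.77 in BIX01294. The treated arrays were spread widely but all lay below the controls. H4C14 fell 1.54-fold (log2 change -0.62 ± 0.136 SE, adjusted p 0.0125 in limma) and lost its call without BIX01294 replicate 3 (adjusted p 0.0531) and with trend and robust estimation (adjusted p 0.0594; range over its alternatives 0.00146 to 0.0594). H4C2 fell 1.21-fold, H4C5 1.19-fold and H4C9 1.18-fold. H4C2 and H4C5 no longer passed on leaving out DMSO replicate 1 or 2, or BIX01294 replicate 1 or 3, and H4C9 without any single array other than DMSO replicate 1. Their highest adjusted p-values in limma without 1 array were 0.149, 0.0782 and 0.0992. All 3 also lost their calls with all rows of the table fitted, H4C2 and H4C9 with centring (0.0634 and 0.0503), and H4C9 with the replicate block (0.0563). Falling H4 genes numbered 2 without DMSO replicate 1, 1 without DMSO replicate 2 or BIX01294 replicate 1, and 0 without BIX01294 replicate 3.

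Of the 6 members with a positive sign, 3 were H4 genes. H4C4 measured 10.19, 10.15 and 10.07 in DMSO and 10.38, 10.27 and 10.20 in BIX01294. It was the 1 member whose treated arrays all lay above the controls, although the gap was narrow, and its difference of 0.14 ± 0.067 (SE) had an adjusted p of 0.168 in limma. H4C13 and H4C8 differed by 0.13 and 0.12 and did not pass. All 3 are named for their values, outside the rule. The H4 genes encode nearly the same protein from similar coding sequences, as do the members within each other core type, so probes of 1 gene can bind transcripts of its relatives, and values of single members are uncertain to that extent.

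By place in the genome, 21 of the 49 members on chromosome 6 fell, with a median log2 change of -0.21. On chromosome 1, 5 of 7 fell, with a median of -0.50, and the single member on chromosome 12, H4C16, differed by -0.11 and did not pass. Chromosomes were not compared by a test. In gene order along chromosome 6 (RefSeq, GRCh38.p14), the widest gap between measured members separates 31 genes from H2AC1 to H4C8, of which 11 fell, from 18 genes from H2BC11 to H2BC17, of which 10 fell. The medians of these stretches were -0.19 and -0.25. No run of neighbouring measured members that fell was longer than 3 genes in either stretch. Genes that fell and genes near 0 were interleaved, as with H1-6 beside H2BC4 (-0.76 and 0.01) and H2BC14 beside H2AC15 (0.05 and -0.85).

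**Figure D4:**
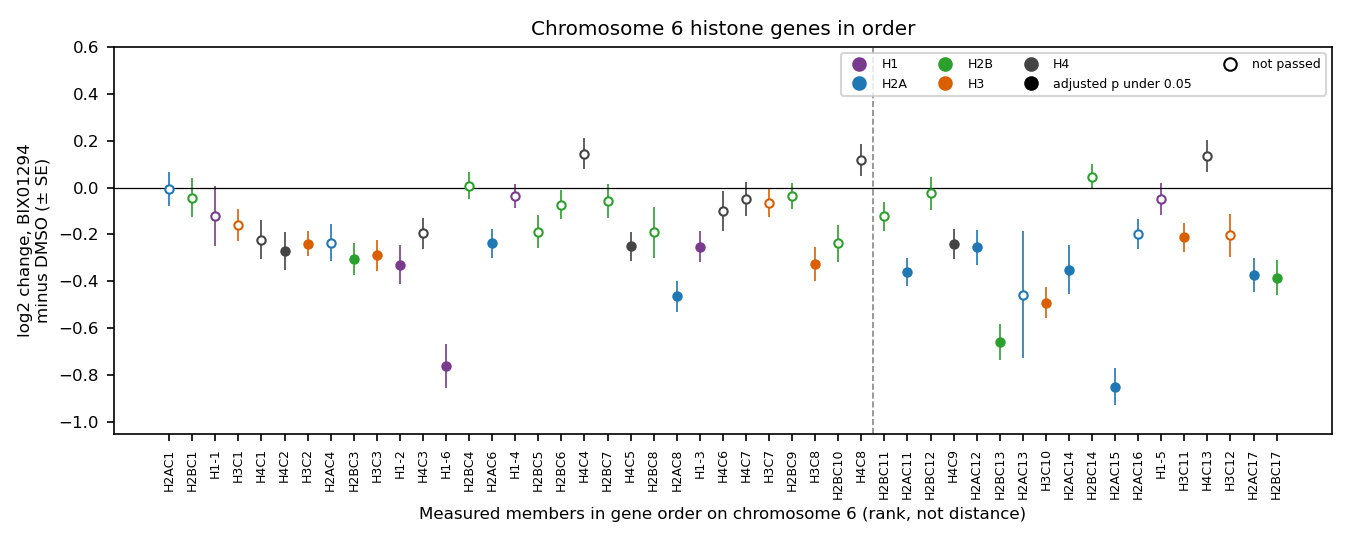
Log2 change (y axis, BIX01294 minus DMSO, ± SE) of the 49 members on chromosome 6 in gene order; the x axis is rank, not distance, colour is histone type, filled points passed an adjusted p of 0.05, and the dashed line marks the widest gap between measured genes. Filled points below 0 alternate with open points near 0 across both stretches.

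Members that fell were found at every level on the array. Of 27 members above the upper quartile of all genes (9.17), 12 fell (median log2 change of the 27, -0.20). Between the quartiles 13 of 25 fell (median -0.26), and below the lower quartile 1 of 5, which was H1-6. Some of the brightest members changed little: H1-4 (mean 14.02), H2BC14 (13.58) and H2BC9 (12.76) lay between -0.04 and 0.05. Also bright, H3C11 (13.39) and H3C2 (12.51) fell. The highest value in the data was 14.93, and compression of bright values was not tested. Shares of all genes within these levels were not counted.

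Replacement histone variants, which are made outside S phase as well and largely, but not solely, from polyadenylated messages, went mostly the other way. Of 9 measured genes of a list of 12, 5 rose and 1 fell, beside 12.9% and 10.7% of all genes. Their median log2 change was 0.17. H2AX, the variant phosphorylated at DNA breaks, measured 9.79, 9.88 and 9.91 in DMSO and 10.11, 10.17 and 10.10 in BIX01294. The groups were separate and H2AX rose 1.20-fold (adjusted p 0.0113 in limma). H3-3B, a gene for the replacement variant H3.3, rose 1.17-fold, H2AZ1, a gene for H2A.Z, 1.14-fold, and H3-5, an H3.3-like gene, 1.13-fold. Probes of H3-5 (mean 11.39) can bind transcripts of its relative H3-3B (mean 10.99). Their changes, 0.18 and 0.22, may therefore not be separate readings, which was not tested. H2AJ, an H2A variant, fell 1.33-fold, from 8.01, 8.08 and 8.01 to 7.61, 7.69 and 7.57. H2AX and H2AJ kept their calls in every alternative. In the other 4 genes that rose every treated array lay above every control, but their calls did not hold with fewer arrays: the count of rising variants was 1 on leaving out DMSO replicate 1, BIX01294 replicate 1 or BIX01294 replicate 3, and 2 on leaving out any other array. H3-3B kept its call without DMSO replicate 2 and H2AZ1 without BIX01294 replicate 2, and H3-5 without DMSO replicate 3. With all rows of the table fitted H3-3B, H2AZ1 and H3-5 lost their calls, as did H2AZ1 and H3-5 with the replicate number as a block (limma adjusted p 0.0778 and 0.0848) and H3-5 with quantile normalization (0.0774).

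Regulators of histone transcription were higher or did not pass, with 1 exception. Of 8 measured genes of 9 listed, 3 rose and 1 fell, beside 12.9% and 10.7% of all genes. CCNE2, a cyclin E that partners CDK2 at S phase entry, measured 8.80, 8.71 and 8.67 in DMSO and 9.83, 9.71 and 9.97 in BIX01294. All treated arrays lay about a full log2 unit above the controls, and CCNE2 rose 2.16-fold. CDC25A, the phosphatase that activates CDK2, rose 1.60-fold and CCNE1, the other cyclin E, 1.27-fold. CDK2 differed by 0.12 ± 0.054 (SE; adjusted p 0.170 in limma). NPAT, the coactivator at histone genes, measured 10.24, 10.28 and 10.12 in DMSO and 10.18, 10.21 and 10.20 in BIX01294. Its groups overlapped, the difference was -0.02 ± 0.060 (SE), and the sign turned positive with centring and without DMSO replicate 2. HINFP, a transcription factor of H4 genes, fell 1.27-fold, from 9.06, 9.17 and 9.05 to 8.77, 8.76 and 8.70.

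Genes of histone mRNA processing and decay rose in 7 of 15 measured cases (16 listed) and fell in 1, beside 12.9% and 10.7% of all genes. SLBP, the stem-loop binding protein, measured 9.52, 9.47 and 9.53 in DMSO and 10.10, 9.99 and 10.00 in BIX01294. Treated and control arrays were well apart, and SLBP rose 1.43-fold (log2 change 0.52 ± 0.056 SE, adjusted p 0.000585 in limma), the opposite sign to most histone members. LSM1, of the cytoplasmic decay complex, rose 1.34-fold, the cleavage factor CSTF2 1.32-fold and the cap-binding subunit NCBP2 1.20-fold. SYMPK, a scaffold of the cleavage complex, fell 1.19-fold. NCBP2 no longer passed on leaving out replicate 1 or 3 of either group, and SYMPK on leaving out DMSO replicate 1, DMSO replicate 2 or BIX01294 replicate 3 (highest adjusted p-values 0.0885 and 0.0592 in limma). NCBP2 also lost its call with all rows of the table fitted (0.0606) and with the replicate block (0.0560). On leaving out DMSO replicate 1, DMSO replicate 3 or BIX01294 replicate 1, 4 genes rose, and on leaving out BIX01294 replicate 3, 3 did.

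Histone chaperones and deposition factors rose in 5 of 21 cases and fell in 0, beside 12.9% and 10.7% of all genes. Their median log2 change was 0.07. At an unadjusted p under 0.05, 6 were higher and 1 lower of the 21, beside 18.7% and 16.2% of all genes. HAT1, which acetylates newly made H4, rose 1.38-fold, the import factor IPO4 1.21-fold, CHAF1B, a subunit of the replication-coupled chaperone CAF-1, 1.21-fold, HJURP, the chaperone of the centromeric H3 variant, 1.19-fold, and ASF1B, which carries H3 and H4, 1.17-fold. ASF1B lost its call without any single array other than BIX01294 replicate 3 (highest adjusted p 0.0816 in limma), and also with quantile normalization (0.0568) and all rows of the table fitted (0.0578). The rest lay between -0.22 and 0.15.

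Transcripts of S phase enzymes and replication factors were higher in the same arrays. Of 19 measured genes of 20 listed, 13 rose and 0 fell, beside 12.9% and 10.7% of all genes. Their median log2 change was 0.31. At an unadjusted p under 0.05 the counts were 15 and 0, beside 18.7% and 16.2% of all genes. The largest rises were those of FEN1 (1.61-fold), CDC6 (1.54-fold), PCNA, the sliding clamp (1.45-fold), RRM2, a subunit of ribonucleotide reductase (1.42-fold) and TYMS (1.41-fold). Per array, the list's median against the DMSO mean was 0.34, 0.25 and 0.25 in the BIX01294 replicates, where the histone members gave -0.17, -0.20 and -0.31. In bulk samples, fewer cells in S phase and less histone RNA per such cell cannot be told apart, and DNA content was not analysed here.

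**Figure D5:**
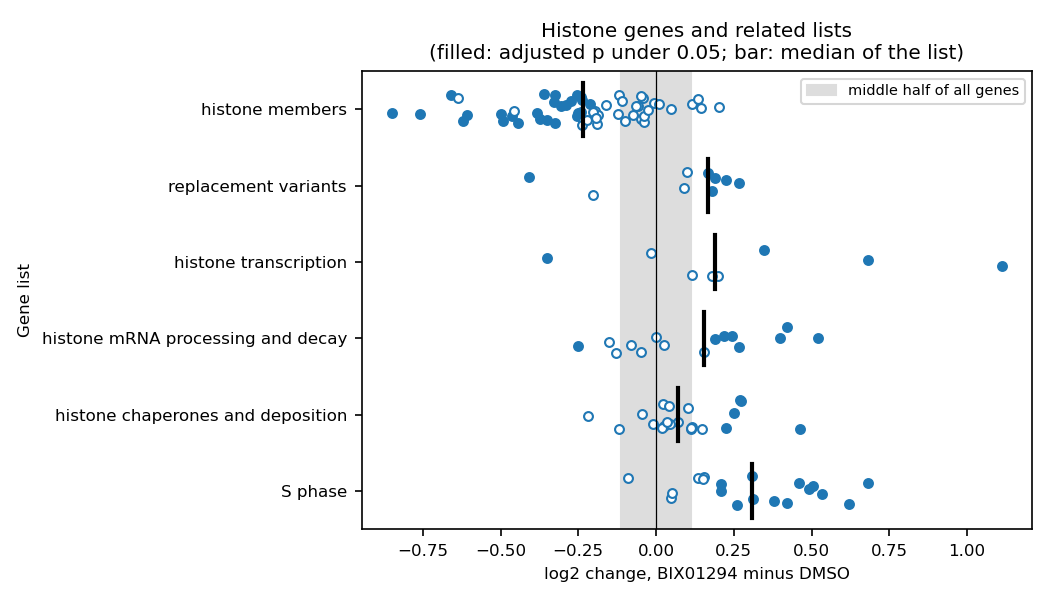
Log2 change (x axis, BIX01294 minus DMSO) of each gene in the histone members and 5 related lists; filled points passed an adjusted p of 0.05, the black bar is the list's median, and grey marks the middle part of all genes from their lower to their upper quartile. The histone median lies at -0.23, and the other medians lie between 0.07 and 0.31.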

How the data were processed

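Values of 6 Affymetrix arrays (3 per group) were used as deposited: per the labels, 1 expression value per transcript cluster and array. The log2 scale of the deposited values was read from their range (1.93 to 14.93). Per the submitters' processing notes, Partek was used. The sources used here do not give the background correction, normalization or summarization. Of 32321 rows, 19158 had 1 gene symbol, 1388 several and 11775 none listed. For 637 genes with several rows the brightest was kept. No detection calls were used, and precision is set by the 3 arrays per group.

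Treatment was the single term of a model fitted to 18404 genes with limma 3.58.1 in R 4.3.3 (empirical Bayes, two-sided, Benjamini-Hochberg over all genes, threshold 0.05); it was tested on simulated data. The labels do not say that samples came from separate cultures, although the design text calls them independent, so p-values measure the spread between these samples. Named genes were all linker histones, up to 8 members past the threshold per core type, up to 5 per related list, and NPAT, SLBP, CCNE1, CCNE2 and CDK2. Members and lists were chosen with earlier results of these data known. Some genes of the lists are not reported here. Both groups carry replicate numbers 1 to 3; deviations of same-numbered arrays correlated at 0.19, -0.18 and 0.05, so the numbers were not taken as pairs. Promoter windows are from RefSeq.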

Additional observations from a re-analysis of the deposited data

Results flagged for a closer look

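Rows outside the 57 members also differed from the control arrays. Of 17 rows annotated with several symbols, at least 1 of them of the histone pattern, 5 were lower and 0 higher in BIX01294 in a limma fit over all rows (adjusted p under 0.05). Of all 32321 rows in that fit, 5.83% were lower and 7.32% higher. Changes of the 17 rows ran from -0.96 to 0.20, and 15 were negative. None of these rows can be given to 1 gene.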

How the results depend on the processing

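The median log2 change of the members stayed negative in all 13 alternatives, from -0.25 to -0.19, and the 26 falling members were joined or reduced as follows. With quantile normalization 29 fell and with centring 20, of which 24 and 20 were among the 26; over all genes the falls were then 2282 and 1536, against 1970, and the rises 2256 and 2762, against 2379. With all rows of the table fitted, 16 members fell (1 H1, 5 H2A and 1 H4 among them), and centring left 2 H4 genes. Trend and robust estimation gave 33 falls and 2 rises (1 in H2A, 1 in H4). With the replicate number as a block 22 fell, 21 of them among the 26, and the median was -0.23. Leaving out single arrays gave 13 to 25 falling members and 0 rising. By type the falls were 1 to 3 (H1), 5 to 8 (H2A), 4 to 8 (H2B), 2 to 5 (H3) and 0 to 3 (H4). Counts over all genes moved too. Falls numbered 1371 with all rows fitted, 2333 with trend and robust estimation and 1654 with the block, and rises 1734, 2991 and 1987. Without single arrays, 1318 to 1818 genes fell and 1699 to 1910 rose. The cause of these shifts was not tested; a fit with 1 array less has fewer samples, and the fit over all rows adjusts over more tests. Called in every alternative that tested them were 12 members, and 14 lost the call in at least 1. The sign of NPAT turned with centring (0.017); leaving out single arrays gave NPAT -0.064 to 0.016 and H1-5 -0.084 to 0.013, none past the threshold. With several rows of a gene averaged, the 26 calls were kept. With genes under the lower quartile left out, 29 of 52 members fell, 25 of them among the 26. In that fit 2147 genes fell and 2712 rose. These counts exceed the 1970 and 2379 of the main fit although fewer genes were tested, so the background shares among brighter genes were larger. Variant histones that rose numbered 3 with quantile normalization, 1 with all rows fitted and 2 with the block. Processing genes that rose numbered 4 with all rows fitted and 4 with the block.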
